A study of Homo sapiens with 8 samples.

Results

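IKAROS-only regions are places in the genome of 697 cells where a binding peak of IKAROS was called and no peak of 6 other mapped proteins overlapped it. Chromatin immunoprecipitation followed by sequencing (ChIP-seq), which recovers and sequences the DNA bound by a protein, was carried out with antibodies to IKAROS, AIOLOS, MTA2, Mi2, HDAC2, OCAB and OCT2. The cells, an established line from a human pre-B leukaemia, were grown in suspension with 10% serum, and the labels name no treatment. Each antibody had 1 library, and 1 input library was made without antibody. The 159806 deposited peaks were merged into 74123 regions wherever they shared at least 1 bp. Of these regions, 53933 held an IKAROS peak, and 16331 of them (30.3%) held no peak of the other 6 lists, which is 22% of all merged regions. Members were thus chosen by the presence of an IKAROS peak and the absence of the others in these same 7 lists, and the lists give no signal outside peaks. How much AIOLOS or MTA2 DNA lay below the calling limits in these regions is not given by the lists.

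IKAROS is a zinc-finger transcription factor that is needed for lymphocyte development and acts as a tumour suppressor in pre-B leukaemia. Its zinc fingers recognise short DNA elements with the core GGGAA, and through other fingers it pairs with relatives such as AIOLOS. Both are known to associate with NuRD, the chromatin complex that holds Mi2, an ATP-dependent nucleosome remodeller, the histone deacetylase HDAC2 and the scaffold subunit MTA2. OCT2 binds the octamer element, and OCAB is its B-cell coactivator.

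Each member held exactly 1 IKAROS peak, and each was 272 bp long from start to end, the fixed width HOMER gave to this list. Members lay on chromosomes 1 to 22 and X in 16289 of 16331 cases. They took in 30.3% of the 53948 IKAROS peaks (95% Wilson interval 29.9 to 30.7, counting error only) but 11.3% of the tags lying in IKAROS peaks. The IKAROS library was the deepest of the 7, with 23.4 M tags against 10.9 M to 22.8 M for the others and 16.1 M for AIOLOS. Peaks without company were also found in the other lists: 42.7% of Mi2 peaks, 27.2% of OCAB, 15.3% of HDAC2, 14.7% of MTA2, 10.1% of OCT2 and 9.57% of AIOLOS peaks overlapped no other list. With 1 library per antibody nothing here could be set against the spread between replicates, so no test was made. Regions are not replicates, and the Wilson and Newcombe intervals cover only the counting of regions or peaks, not of tags. The Poisson intervals of single peak heights cover counting error in PCR-amplified tags without molecular identifiers. None of them covers the spread between libraries.

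Peaks in these regions were low. Height is the tag number of a peak scaled to a library of 10 M tags. The lowest member had a height of 5.13 (12 tags), the median member 11.5 (27 tags) and the highest 458.1 (1071 tags), and 5% of members stood above 24.4. Regions with IKAROS and AIOLOS alone had a median IKAROS height of 20.5 (quartiles 14.5 and 30.4), which is 1.78 times that of the members (quartiles 8.55 and 15.4). Where MTA2 lay with both factors and no other protein was called, the median was 32.1, or 2.79 times. The quartile ranges of the members and of the regions with AIOLOS overlapped slightly, and the lowest peak of either class had the same height of 5.13. Whereas 50.1% of all IKAROS regions stood at or above the median height, 1688 members did (10.3%, 9.88 to 10.8). A height of 100 or more was reached by 5.58% of all IKAROS regions and by 10 members, 0.0612% of them.

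**Figure D1:**
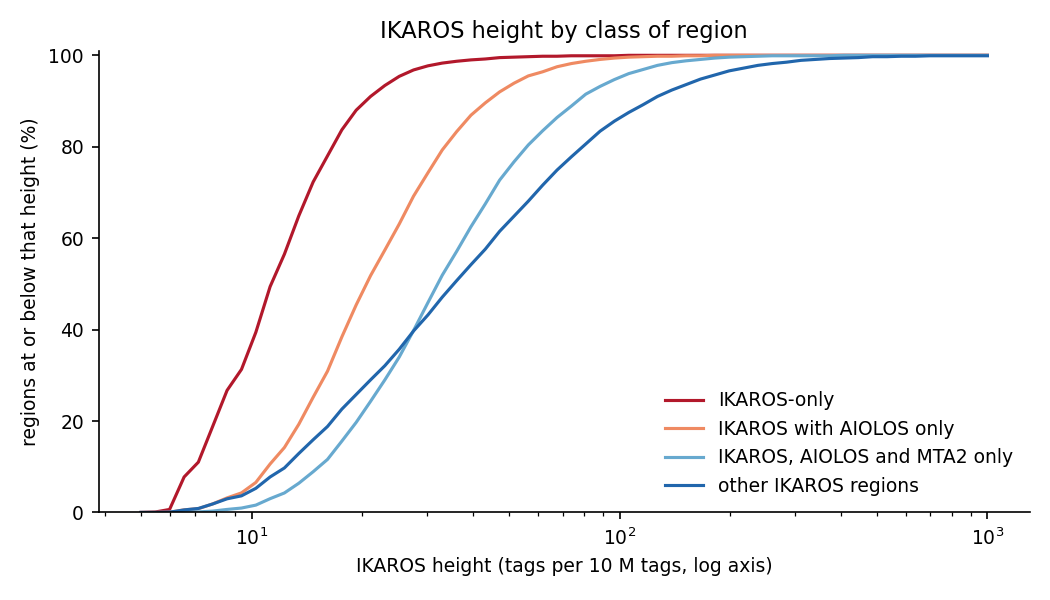
Share of regions (y axis, %) with an IKAROS height at or below the value on the x axis (tags per 10 M tags, log axis) for 4 classes of IKAROS region. The curve of the IKAROS-only regions lies to the left of the other 3, with a median of 11.5 against 20.5 with AIOLOS only and 32.1 with AIOLOS and MTA2 only.

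A low position within the own list was not particular to IKAROS. The median IKAROS peak without company stood at percentile 21.3 of its list by height, and the same percentile was 22.2 for AIOLOS, 22.9 for MTA2, 21.9 for HDAC2 and 23.8 for OCT2 peaks without company. For Mi2 and OCAB it was 35.8 and 38.4.

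Company varied with IKAROS height along the whole range. The IKAROS regions were put in 10 bins of equal size by height, bin 1 being the lowest. In bin 1, with heights between 5.13 and 8.98, 81.7% were IKAROS-only (80.6 to 82.7). The share was 53.1% (51.7 to 54.4) in bin 3, 29.4% (28.2 to 30.6) in bin 5, 8.10% (7.40 to 8.86) in bin 7, and 0.389% (0.255 to 0.594) in bin 10, from a height of 72.3. In bin 10 it was 4.69% without the AIOLOS list, 0.816% without MTA2, 0.630% without HDAC2, 1.69% with centres within 100 bp as the criterion, 0.794% at 8-fold over input and 0.180% with peaks up to 1000 bp apart merged. The bins were drawn anew in each of these settings. With the 4000 highest peaks of each list, the share was 29.5% in the lowest bin. That bin does not compare with bin 1 above, as IKAROS-only regions had a median height of 93.2 in this setting. With all peaks, the share was lower in each bin than in the one before. Bins 1 to 3 held 10833 members, 66.3% of all. Regions with AIOLOS alone beside IKAROS were most frequent in the middle, with 33.0% of bin 6, and made up 6.88% of bin 1 and 4.23% of bin 10.

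**Figure D2:**
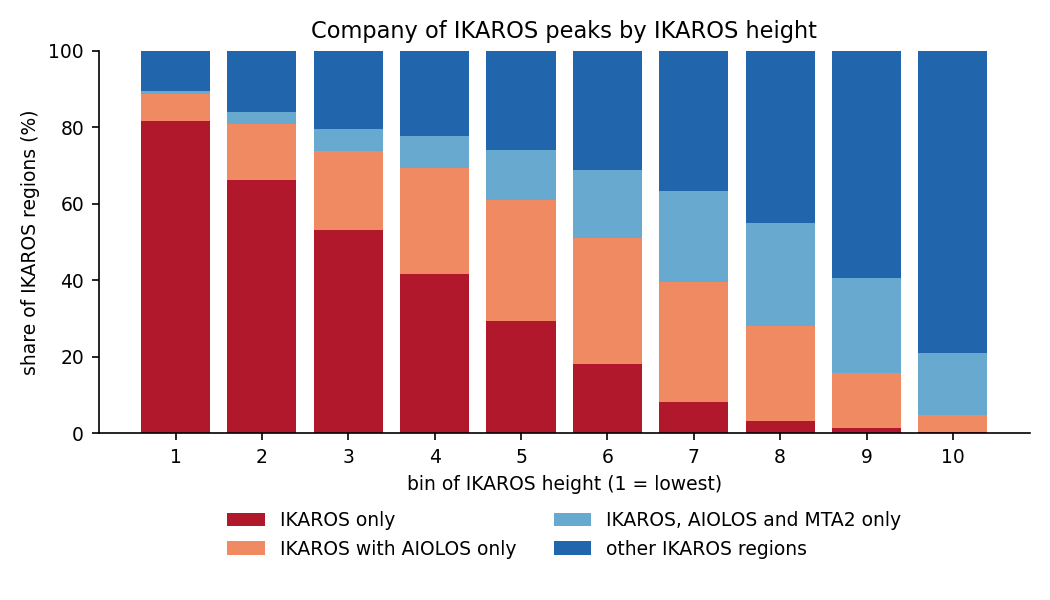
Classes of IKAROS region (stacked bars, % of regions) in 10 bins of IKAROS height, from the lowest on the left to the highest on the right. IKAROS-only regions make up 81.7% of bin 1 and 0.389% of bin 10.

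Where AIOLOS did accompany a low IKAROS peak, its own peak stood low in the AIOLOS list. In bin 1 an AIOLOS peak was present in 8.51% of regions, with median heights of 7.70 for IKAROS and 11.2 for AIOLOS, whose list had a median of 23.7. In bin 10 AIOLOS was present in 97.5% of regions, with medians of 105 for IKAROS and 84.0 for AIOLOS. Heights of different antibodies do not compare as amounts of protein. On the scaled tag number alone, the lowest AIOLOS peak had a height of 6.22 and 5% of AIOLOS peaks lay below 10.6. Of the members, 640 (3.92%) had an IKAROS height under the first value, against 1.37% of all IKAROS regions. Under the second value were 6952 members (42.6%), against 16.9% of all IKAROS regions.

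The members also stood closer to the calling limits of their own list. The p-value over input, a Poisson value from HOMER, was above 1e-10 in 4.32% of all IKAROS regions, in 1808 members (11.1%) and in 521 of the other 37602 IKAROS regions (1.39%). At least 10-fold over input was reached by 70.8% of IKAROS regions, by 51.7% of members (50.9 to 52.4) and by 69.7% of regions with AIOLOS only (68.8 to 70.5). At least 10-fold over the surrounding signal was reached by 59.8% of IKAROS regions, 45.1% of members and 59.0% of regions with AIOLOS only. HOMER's clonal fold, which is high where tags pile up on few positions, had a median of 0.910 in members and 0.900 in regions with AIOLOS only.

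At matched height the median input was higher in members in the middle bins only. Median input tags in the peak were higher in members than in regions with AIOLOS only in 6 of 10 bins (3 to 8). They were equal in the other 4 (bins 1, 2, 9 and 10). Bins 1 and 2 held 4406 and 3565 of the 16331 members, with medians of 1 and 2 input tags in both classes. Folds over input in these bins thus rest on few input tags. The deposited input values also have a floor, whose part in the folds was not tested. In bin 5 the medians were 5 and 3 tags, and the medians of fold over input 8.18 and 11.8. In 8 of 10 bins the fold over input was lower in members, in 1 it was equal, and in bin 10 it was higher (32.4 against 31.3). Height and input were related by a rank correlation of 0.73 over the 16331 members and 0.50 over the 11304 regions with AIOLOS only. The part of the input in the membership was not tested.

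Members lay farther from other proteins than IKAROS regions with company did. The nearest region holding a list other than IKAROS was a median of 10306 bp away (quartiles 2863 and 29162), against 5862 bp for regions with AIOLOS only and 5001 bp for those with AIOLOS and MTA2 only. Such a region lay within 1000 bp of 21.8% of all IKAROS regions and of 2556 members (15.7%, 15.1 to 16.2), and 8287 members (50.7%) had none within 10000 bp, against 39.5% of all IKAROS regions and 38.0% of those with AIOLOS only. Members and regions with AIOLOS only both lack MTA2, Mi2, HDAC2, OCAB and OCT2, so the distance to these 5 was compared as well. The comparison is still shaped by how the classes are defined. A protein overlapping the AIOLOS peak of a region with AIOLOS only moves it to another class, whereas an AIOLOS peak beside a member may itself overlap one of the 5 and then counts as near. Regions with AIOLOS only were also wider, with a median of 300 bp against 272 bp. The part of these definitions in the differences was not tested. One of the 5 lay within 1000 bp of 11.8% of members (11.3 to 12.3) and 17.8% of regions with AIOLOS only (17.1 to 18.5), a difference of -5.94 points (Newcombe interval -6.81 to -5.09). The median gap to each of the 5 grew as its list got shorter, from 28760 peaks of MTA2 down to 4440 of OCAB. The order of the gaps thus followed list size, whose part in them was not tested. MTA2, the longest list of the 5, was the nearest, with a median gap of 21529 bp in members and 13904 bp with AIOLOS only. For HDAC2 the medians were 41199 and 29244 bp, for Mi2 65654 and 52914, for OCT2 85936 and 66909, and for OCAB 156426 and 125376.

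At matched height the order differed, and in 7 of 10 bins the median gap was shorter for members. The median gap from a member to another protein was 16677 bp in bin 1 by IKAROS height, 5024 bp in bin 5, 554 bp in bin 8 and 258 bp in bin 10. For regions with AIOLOS only the same medians were 16409, 6394, 3288 and 996 bp. This gap counts AIOLOS, of which each region with AIOLOS only already holds a peak, and the caller keeps peaks of 1 list apart. That part of the contrast was not tested. To the nearest of the other 5 lists the medians for members in these bins were 21919, 7990, 1005 and 258 bp. With AIOLOS only they were 23464, 10352, 4935 and 1286 bp. In bins 2 and 3 the members had the longer median. Height and the gap to any other protein were related by a rank correlation of -0.32 over the 16331 members. Over the 11304 regions with AIOLOS only it was -0.26. Both are given as a description of regions that share 1 library. One of the 5 proteins absent from both classes lay within 1000 bp of 4.79% of members (4.20 to 5.46) and 7.01% of regions with AIOLOS only (4.83 to 10.1) in bin 1. The intervals of the differences cover the counting of regions of 1 library and are no test. The difference was -2.19 points (-4.57 to -0.137) in bin 2, 0.524 (-1.70 to 2.57) in bin 3 and 1.42 (-0.846 to 3.62) in bin 4. It was 4.48 points (1.85 to 7.11) in bin 5, 5.45 (2.33 to 8.67) in bin 6 and 10.8 (6.13 to 15.7) in bin 7. In bin 8 the shares were 49.7% (42.4 to 57.0) and 23.3% (21.1 to 25.6), a difference of 26.4 points (18.8 to 34.0). In bin 9 it was 29.3 points (17.5 to 40.1), and in bin 10, with 21 members, 11.5 points (-10.1 to 31.0). Over bins 8 to 10 together the difference was 25.1 points (18.9 to 31.2). It came to 6.06 points (2.45 to 9.98) with at least 8-fold over input required in every list, 10.1 (5.54 to 15.0) without the MTA2 list, and 15.6 (-10.0 to 52.9) with the 4000 highest peaks of each list.

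**Figure D3:**
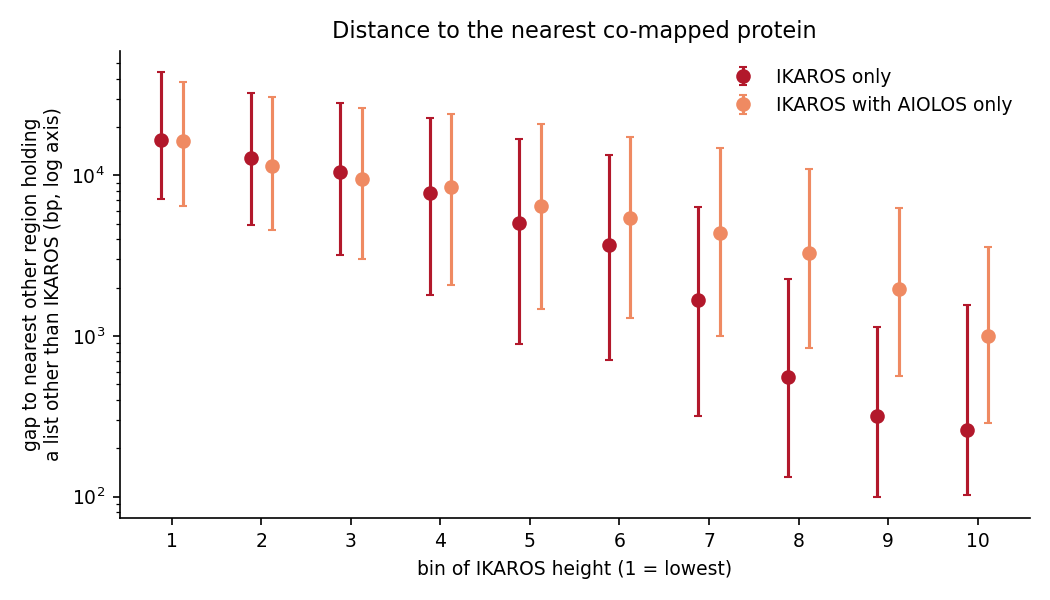
Gap in bp (y axis, log scale) to the nearest other region holding a protein other than IKAROS, by bin of IKAROS height; points are medians over regions and bars run from the lower to the upper quartile. The 2 classes start at 16677 and 16409 bp and part toward the right, where IKAROS-only regions reach 258 bp and regions with AIOLOS only 996 bp. The gap counts AIOLOS, of which regions with AIOLOS only already hold a peak.

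The members with a neighbour within 1000 bp were higher and less sharply placed. Their median height was 15.4, against 12.0 at gaps between 1000 and 10000 bp and 10.3 beyond. Their focus ratio, HOMER's fraction of tags placed around the peak centre, was 0.721 against 0.768 and 0.784. They stood a median of 6.53-fold over the surrounding signal, against 7.44-fold and 11.7-fold. That signal may take in the neighbour itself, whose part in this fold was not tested. Of the 272 members in bins 8 to 10, 172 (63.2%) had another protein within 1000 bp, against 748 of 2342 regions with AIOLOS only (31.9%). This count takes in AIOLOS, of which regions with AIOLOS only already hold a peak. In bin 9 the median fold over the surrounding signal was 5.58 in members, 13.6 in regions with AIOLOS only and 17.7 in all IKAROS regions with company, while in bin 1 the 3 medians were 8.09, 8.29 and 7.62.

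**Figure D4:**
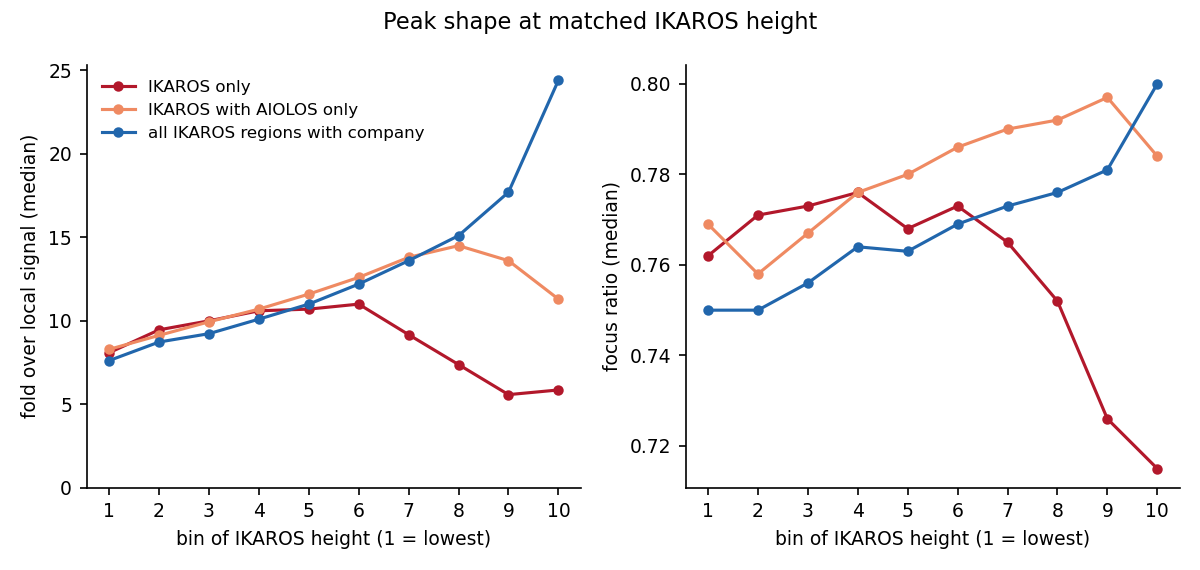
Median fold over the local signal (left) and median focus ratio (right) by bin of IKAROS height for members, regions with AIOLOS only, and all IKAROS regions with company; the right axis does not start at 0. The members lie below the other 2 classes in bins 7 to 10, at 5.58-fold in bin 9.

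Next to a member, the nearby region was often one without IKAROS. Of the 2556 neighbours within 1000 bp, 37.6% held IKAROS (35.8 to 39.5), 61.5% AIOLOS (59.6 to 63.4) and 48.1% MTA2 (46.2 to 50.1). Among all merged regions that hold another list these shares were 65.1%, 65.9% and 49.7%. The remaining lists were also less frequent beside members. The shares were 20.1% against 27.9% for HDAC2 and 7.79% against 14.1% for OCT2. For Mi2 they were 15.2% against 17.8%, and for OCAB 5.83% against 7.68%. The part of the differing IKAROS share in the other shares was not tested. Within 272 bp, the width of 1 IKAROS peak, 1036 members had a neighbour, of which 90 (8.69%) held IKAROS, 572 held AIOLOS and 494 MTA2. Peaks of 1 list are kept apart by the caller: the closest centres of 2 IKAROS peaks were 456 bp apart and 1% of neighbouring centres were closer than 698 bp. A second IKAROS peak was therefore seldom possible in that window, and a displaced centre of 1 bound site cannot be told apart from 2 sites there. The 37.6% within 1000 bp includes these 1036 neighbours and falls under the same spacing, whose part in it was not tested.

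Some members missed another peak by a few bases. The 6 that touched a peak of another list without sharing a base had IKAROS heights from 8.13 to 42.8. They included chromosome 14, 88655608 to 88655880 (IKAROS height 26.1, beside an AIOLOS height of 8.09), and chromosome 2, 85009279 to 85009551 (10.3, beside an HDAC2 height of 9.16), and 101769053 to 101769325 (10.3, beside an HDAC2 height of 11.9). Just outside, 3 regions shared a single bp with 1 other peak: chromosome 17, 46088805 to 46089395 (IKAROS 15.8, HDAC2 11), chromosome 6, 26311705 to 26312233 (IKAROS 21.4, AIOLOS 15.6), and chromosome 8, 143821715 to 143822333 (IKAROS 23.1, Mi2 19.5). Gaps of up to 10 bp were found for 72 members.

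Of the 10 highest members, some lay within a few bases of other proteins and some lay over 1000 bp away. Coordinates are on build hg19, as deposited. The highest, on chromosome 2, 92318559 to 92318831, had a height of 458.1 (exact Poisson interval 431 to 486), but also 135 input tags, the most of any member, 7.21-fold over input, and the highest clonal fold of any IKAROS region (1.86). Its nearest other list was an HDAC2 peak of height 50.4, at 5421 bp. The second, on chromosome 3, 195497839 to 195498111, had a height of 279.3 (258 to 302), and 28 bp beyond its end began a region with AIOLOS (height 158), MTA2 (159), Mi2 (41.6) and HDAC2 (33.9) but no IKAROS. On chromosome 17, 7143085 to 7143357, an IKAROS peak of height 214.7 (196 to 234) lay 2 bp from a region with AIOLOS at 478 and MTA2 at 52.1. These 2 members thus stood directly beside AIOLOS and MTA2 peaks that did not overlap them.

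Of the next members by height, most also had another protein close by. A peak of 152.7 (137 to 169) on chromosome 1, 94560137 to 94560409, lay 389 bp from a region where IKAROS (184), AIOLOS (151), MTA2, OCAB and OCT2 were all called. On chromosome 1, 234659370 to 234659642, the height was 114.2, and an OCT2 peak of height 35.5 began after a gap of 8 bp. Chromosome 17, 56410179 to 56410451 (height 113.3) lay 102 bp from an MTA2 peak of 45.5, and 56406520 to 56406792 (105.2) lay 3761 bp from the same MTA2 peak. On chromosome 8, 126444227 to 126444499 (113.3) lay 1553 bp from a region with IKAROS, AIOLOS, MTA2 and HDAC2, and 96282170 to 96282442 (100.5) lay 159 bp from AIOLOS and MTA2. Of these 10 regions, 7 were still alone when peaks up to 100 bp apart were merged, and 4 when peaks up to 1000 bp apart were.

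One of the 10 stood apart from every other protein by more than 10000 bp. On chromosome 6, 41906218 to 41906490, the height was 145.8 (131 to 162; 341 tags against 2 input tags), the nearest other list was a Mi2 peak of height 13.0 at 15710 bp, and the nearest other IKAROS peak was 17006 bp away. Its focus ratio of 0.606 and its 4.30-fold over the surrounding signal lay below the medians of 0.769 and 9.33 over all members. Among members with no other protein within 10000 bp, chosen after their values were seen, the next after the one on chromosome 6 was 44.1 high (36.0 to 53.5). It lay on chromosome 2, 91806493 to 91806765. It had 506053 bp to the nearest other list, but also 14 input tags and 6.69-fold over input. Chromosome 1, 120753090 to 120753362 (43.2, 7 input tags, 13.1-fold), and chromosome 5, 71747968 to 71748240 (40.2, 6 input tags, 14.2-fold), came after it. Chromosome 15, 57998704 to 57998976 (37.2, 12 input tags, 6.59-fold), followed. The medians over all members were 2 input tags and 10.0-fold over input.

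The share of IKAROS regions without company differed between chromosomes. Chromosome Y, with 28 of 55 (50.9%, 38.1 to 63.6), held too few IKAROS regions and was left out of what follows. Over chromosomes 1 to 22 and X, the share was highest on X, with 525 of 1300 (40.4%, 37.7 to 43.1), followed by chromosome 4 (35.4%, 33.5 to 37.5) and 3 (34.1%, 32.5 to 35.8), and lowest on 19 (21.8%, 20.1 to 23.5). IKAROS heights moved with it: the median height was 14.1 on X, 17.1 on chromosome 4 and 25.7 on chromosome 19, and the mean input in an IKAROS peak was 1.96 tags on X, 3.18 on chromosome 4 and 4.33 on chromosome 19. Across the 23 chromosomes the rank correlation of share and median height was -0.91, as a description. When the number of members was predicted from each chromosome's IKAROS heights, with the share of each bin taken over the whole genome, observed over expected was 0.957 on X (0.877 to 1.04) and 0.945 on 19 (0.864 to 1.03). Over these 23 chromosomes it ran from 0.945 to 1.08, and the interval lay above 1 on 1 chromosome (8, with 1.08, 1.01 to 1.17) and below 1 on none. These intervals cover the counting of members only and are no test.

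**Figure D5:**
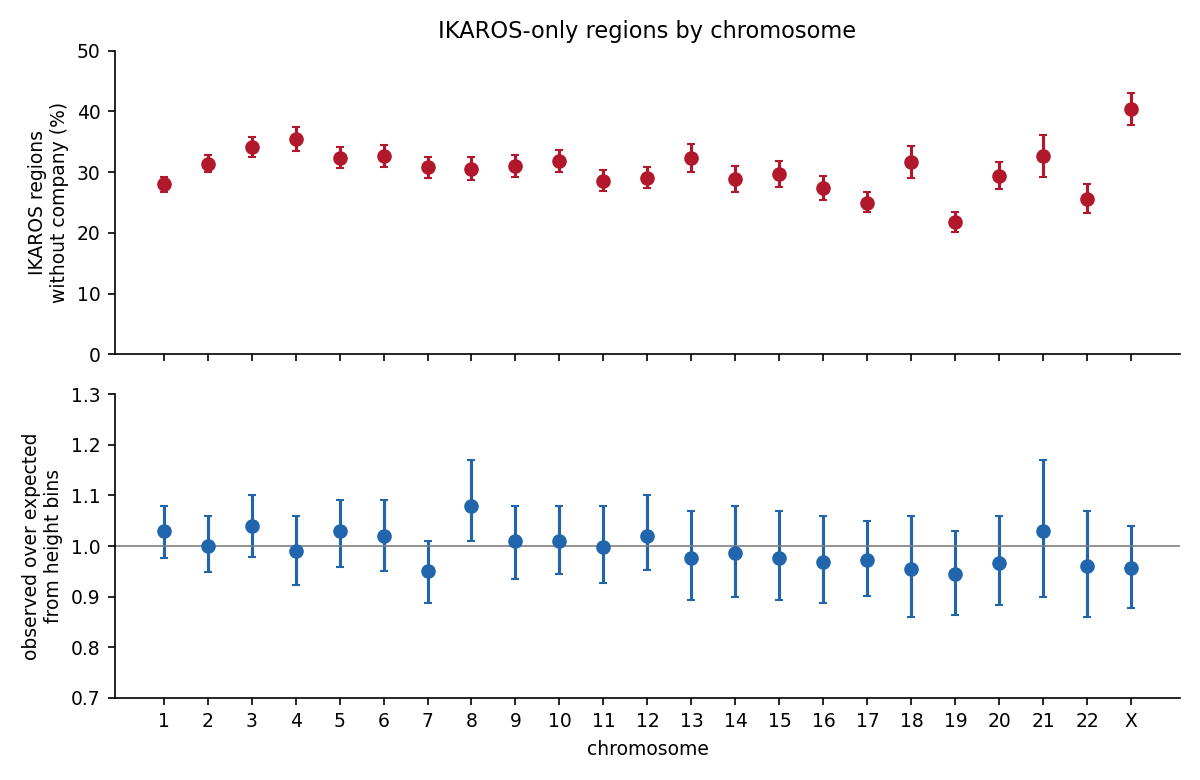
Upper panel: share of IKAROS regions that are IKAROS-only (%, bars are 95% Wilson intervals) by chromosome, without Y. Lower panel: number observed over the number expected from the chromosome's IKAROS heights (bars are exact Poisson intervals of the count, the axis does not start at 0, line at 1). Of the 23 chromosomes drawn, X is highest above, at 40.4%, and stands at 0.957 below.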

How the data were processed

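The authors deposited 1 peak list per antibody library. Per the submitters' processing notes, the software was HOMER 4.9.1, Bowtie2 2.3.2.2 and CASAVA, at 1.8.2 except for the HDAC2 library at 1.4, with build hg19. The HDAC2 header records at least 4-fold over input and over the local signal. The labels and headers used here state no such settings for the other 6 lists. Over all IKAROS regions the lowest values were 4.01-fold over input and 4.00-fold over the local signal. Height is the deposited signal of tags per 10 M. The deposited tag counts of 5 lists are whole, and the authors' tags for IKAROS and MTA2 are scaled to input depth; library depths were computed from tags over height, and whole IKAROS tags were recovered (100% of peaks up to 200 scaled tags within 0.1 tag). Folds are deposited ratios, the focus ratio is a deposited fraction, p-values are those the authors deposited from HOMER, and the deposited peak score was not used.

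Peaks were merged at 1 bp with both ends counted. Regions were classed by lists held, ranked by their highest IKAROS peak, and gaps were measured between region edges. Intervals are 95% Wilson, Newcombe or exact Poisson. Python 3.11.15, pandas 2.3.3, scipy 1.17.1 and statsmodels 0.14.6 were used. The code recovered 3 of 3 quantities on simulated peaks. The members, classes and measures were chosen with earlier results of these data known. The rule named the 10 highest members with at least 4-fold over input, members at the edge of the rule, runs and dense windows. It also asked for the members with the most IKAROS peaks, but each had 1. No hg19 sequence or annotation was used here, so genes, promoters and motifs were not analysed.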

Additional observations from a re-analysis of the deposited data

How the results depend on the processing

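The number of IKAROS-only regions was within 1.5 times of 16331 under 12 of 14 alternatives; it was 27773 without the AIOLOS list and 319 with the 4000 highest peaks of each list, which keeps fewer IKAROS peaks by construction. The share of IKAROS peaks was 29.4% and 25.5% with peaks up to 100 and 1000 bp apart merged, 36.5% with centres within 100 bp as the criterion, 31.4% at 8-fold over input, 29.2% at a p-value of 1e-10 or lower, and 7.97% with 4000 peaks per list. Without the AIOLOS, MTA2, Mi2, HDAC2 or OCT2 list it was 51.5%, 34.2%, 30.9%, 31.5% and 30.7%, since fewer lists can give company. The ratio of IKAROS height with AIOLOS only over IKAROS-only was 2.42 at 8-fold, 1.20 with 4000 peaks per list and 2.12 without MTA2; the cause was not tested. It cannot be had without the AIOLOS list, and in the other 10 alternatives it lay within 1.78 to 1.89, the range from the 95% order-statistic limits of both medians. Among the alternatives counted, a clonal fold limit of 2 removed no member, and chromosomes 1 to 22 and X alone kept 16289 of 16331. Neither could move the number or the ratio much. No paired analysis was possible because each antibody had 1 library and nothing was tested. Depth limits the text most at low peaks: the median member rests on 27 tags.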

Other observations

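IKAROS-only regions sometimes followed each other with no region of another protein between them. Of such runs, 9120 were of 1 member, 2202 of 2 and 572 of 3. Members are a sizeable share of all merged regions, so some runs would also occur if regions stood in random order. How many runs of each length a random order would give was not computed. The longest run found, on chromosome 15 from 57829274 to 58540448, held 10 members over 711175 bp. Its heights lay between 7.27 and 41.9, with a median of 14.8. A run of 9 on chromosome 1, 66911126 to 67390414, had a median height of 10.3, and another of 9 on X, 124235937 to 126033116, spread over 1797180 bp with heights from 5.56 to 12.4.

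Members were also counted in windows of 1 Mb. Of 2766 windows with a region of any list, 2571 held a member, with a median of 6. The most, 23 each, lay on chromosome 12 between 53 and 54 Mb and on chromosome 4 between 40 and 41 Mb, where members were 39.0% and 52.3% of the IKAROS regions. Windows with 22 lay on chromosome 11 between 65 and 66 Mb (28.6%) and on chromosome 6 between 15 and 16 Mb (45.8%), against 30.3% over the genome.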
